A study of Homo sapiens with 18 samples.

Results

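The regions described here are sites of open chromatin at which every library with a hairpin against AHR had a strong ATAC-seq peak and no library with the empty vector did. In each cell line the list of autosomal peaks of every library was shortened to its strongest entries by −log10 p, all to the length that the line's shortest list has with chromosome X counted, and the 9 shortened lists were merged wherever peaks overlapped by at least 1 bp. A merged region was called gained when it held a peak of 6 of 6 hairpin libraries and of 0 of 3 empty-vector libraries. This gave 37 regions of 16622 in Kelly (0.223%) and 177 of 41611 in BE2C (0.425%). A single region (1) was found in both lines, so the union held 213 regions, of 43418 regions over both lines. The regions were chosen by the presence and absence of peaks in the line's own libraries, and those values are given below as a description without a test. In bulk chromatin a stronger peak can mean more cells with an open site or a site more open in each cell, and these cannot be told apart.

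ATAC-seq uses a transposase that inserts sequencing adapters into DNA that is not covered by nucleosomes, so a peak marks accessible chromatin, most often a promoter or an enhancer. AHR, a bHLH-PAS protein, rests in the cytoplasm until a ligand binds it; it then enters the nucleus, pairs with ARNT and regulates genes from short DNA recognition elements. It is best known for inducing genes of xenobiotic metabolism. Neuroblastoma is a childhood tumour of the sympathetic nervous system, and amplification of MYCN, a locus on chromosome 2 that is present in many copies in such tumours, marks an aggressive form.

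By its title, the study asked about the part of AhR in dedifferentiation of neuroblastoma cells with amplified MYCN. Kelly and BE2C are established human neuroblastoma lines, and BE2C is a clonal subline of an older line, so each line stands for a single tumour. Cells carried a lentiviral short hairpin RNA against AHR, shAhR-1 or shAhR-2, or the empty vector pLKO, with 3 libraries in each of 6 groups (18 in all). The labels speak of triplicates and do not name separate cultures, so the spread between libraries may be technical. The level of AHR, marker genes of the cells, nearby genes and DNA sequence were not analysed here, and positions are hg19 coordinates counted from 1.

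The libraries differed in depth. Full autosomal lists held 58932 to 79435 peaks with shAhR-2, 8967 to 43702 with shAhR-1 and 19445 to 43173 with pLKO. The genome-wide background, which was worked out from the peaks and stood here for depth, was 2.56 to 4.42 overlapping reads with shAhR-2, 0.601 to 1.75 with shAhR-1 and 1.26 to 1.92 with pLKO. The shortest lists belonged to shAhR-1 replicate 1 in Kelly (8967 peaks) and shAhR-1 replicate 3 in BE2C (24894 peaks), both kept whole. Shortening put the lists of a line at nearly equal length, but the weakest peak kept still had a −log10 p between 4.23 and 44.9 in Kelly and between 3.68 and 23.6 in BE2C.

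The region gained in both lines lay on chromosome 7, at chr7:85139441-85140467 in Kelly and chr7:85139044-85140512 in BE2C. In Kelly the authors' fold over local background at the summit was 8.42, 14.7 and 10.8 in the shAhR-1 libraries and 9.31, 9.16 and 9.76 in the shAhR-2 libraries, against 5.21 in pLKO replicate 1, and the other pLKO libraries had no peak there even in their full lists. Solved reads at the summit numbered 16, 49 and 40 with shAhR-1 and 68, 74 and 66 with shAhR-2, against 15 in the 1 pLKO library with a peak. Divided by each library's genome-wide background, these were 23.3 to 38.7 in the hairpin libraries and 8.46 in the pLKO library. Counting error alone gives 95% exact Poisson intervals of 9.14 to 25.98 for the 16 reads of shAhR-1 replicate 1 and 8.39 to 24.7 for the 15 of the pLKO library.

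In BE2C the folds at the same place were 9.21, 7.93 and 7.44 with shAhR-1 and 10.1, 8.87 and 7.69 with shAhR-2, against 3.19, 4.41 and 5.43 with pLKO. Reads over the genome-wide background were 13.5 to 26.5 in the hairpin libraries, against 6.69 and 9.70 in the pLKO libraries for which they could be solved. Every hairpin library was above every pLKO library in both measures, and the pLKO peaks ranked 28593 or lower, past the end of the shortened lists. The gain in Kelly rested on a narrow margin of rank, since the peak of shAhR-2 replicate 1 ranked 9098, close to the end of the shortened list. By overlap with a gained region of the other line, it was 1 of 37 in Kelly, against 0.259% of all Kelly regions, and 1 of 177 in BE2C, against 0.0841%. With chromosome X added to the lists before shortening, or with all lists shortened to the shortest autosomal one, no region (0) was gained in both lines. With the shortest list of each line left out and the rest shortened to the next shortest, 3 were, the one on chromosome 7 and further ones at chr2:189586052-189587242 and chr6:105048327-105049603.

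**Figure D1:**
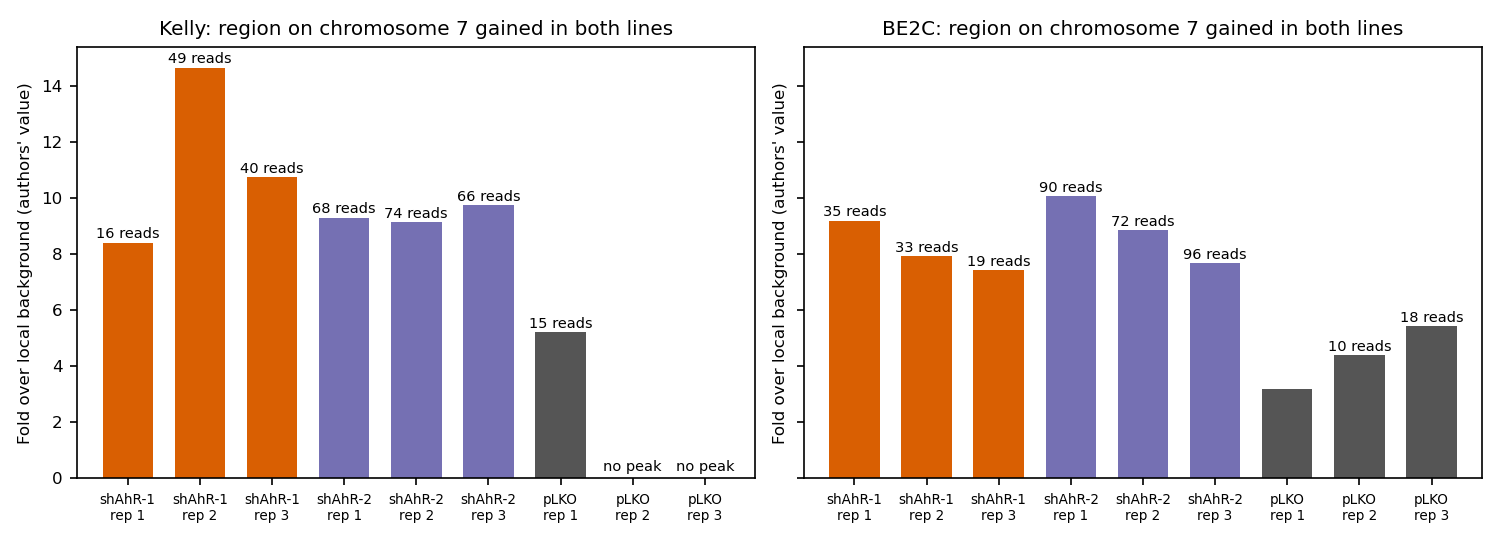
Fold over local background (the authors' value per peak, linear axis from 0) in each library at the region of chromosome 7 gained in Kelly (left) and BE2C (right), with the solved reads at the summit above each bar where they could be solved. The hairpin libraries stand at 7.44 or above in both lines, and the pLKO libraries at 5.43 or below, with no peak in 2 of them in Kelly.

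In Kelly, gain meant a higher place in the ranking of peaks, since none of the 37 regions was without a pLKO peak. The full pLKO lists of Kelly were 2.11 to 3.68 times as long as the shortened ones, which left room for such weaker peaks. All 37 regions had a weaker peak in at least 1 full pLKO list, and 24 of them had one in all 3. The median rank of the regions' peaks was 4848 to 6595 in the hairpin libraries, against 13115 to 13460 in the pLKO libraries. By the authors' fold the groups overlapped at most of these regions. Every hairpin fold was above every pLKO fold at 3 of the 37. At 13 a pLKO library had a fold above the median of the hairpin libraries. The same counts over all Kelly regions were not worked out. At the 4007 Kelly regions with a peak in all 9 libraries the median fold was 6.27 to 10.32 with hairpins. There it was 11.87 and 7.83 in pLKO replicates 1 and 2, and replicate 3 was above both. At the gained regions the medians were 5.52 to 10.23 with hairpins, against 7.70, 4.64 and 7.67 with pLKO. The pLKO medians cover the 37, 24 and 36 regions with a peak there. The part of each library's general level of fold in the overlap of the groups was not tested. At the same fold a peak with more reads has a higher −log10 p, so fold and rank need not order peaks alike.

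Ordered by the lowest fold among the 6 hairpin libraries, the region of chromosome 7 was followed in Kelly by chr14:27289364-27289997. There the folds were 7.85, 7.94 and 9.31 with shAhR-1 and 12.2, 12.7 and 13.6 with shAhR-2, against 8.77 and 9.69 in pLKO replicates 1 and 3. The shAhR-2 libraries stood above the pLKO libraries, and the shAhR-1 libraries overlapped them. Of the 9 BE2C libraries, 1 had a peak here in its full list, shAhR-2 replicate 1, with a fold of 3.64.

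The third region was chr1:216629760-216631023, with folds of 7.88, 7.82 and 7.35 with shAhR-1 and 9.21, 7.52 and 9.99 with shAhR-2, against 8.33 and 7.69 in 2 pLKO libraries. The fourth, chr15:33452422-33453745, had hairpin folds of 6.78 to 9.69, against 7.70, 4.16 and 9.26 with pLKO, and its strongest pLKO peak ranked 9439, just past the end of the shortened list. In both, the hairpin and pLKO folds overlapped and the separation was one of rank. The next regions of the order were chr5:123462944-123464282 (hairpin folds 6.71 to 10.9), chr4:96434182-96434626 (6.59 to 8.57), chr3:158245865-158246691 (6.33 to 11.6), chr6:104430429-104431394 (6.32 to 10.4) and chr4:18320196-18321273 (6.25 to 9.82). At the sixth of the order, chr4:96434182-96434626, the pLKO folds were 5.59, 4.28 and 6.40, all below the lowest hairpin fold.

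The tenth region of Kelly, chr3:168006428-168007781, had the widest gap in rank after that of chromosome 7 among the 10. Its folds were 6.07, 9.54 and 10.3 with shAhR-1 and 8.25, 8.35 and 9.27 with shAhR-2, against 5.44 and 4.39 in pLKO replicates 1 and 3, and pLKO replicate 2 had no peak. The ranks were 5570 or better in the hairpin libraries, against 20478 and 24952 with pLKO. In BE2C the full lists had a peak here in 5 of 6 hairpin libraries, with folds of 4.26 to 6.43, and in 1 of 3 pLKO libraries, with a fold of 4.41. With the longer BE2C lists that leave out shAhR-1 replicate 3, it was also gained in BE2C with shAhR-1, as were 0.932% of all Kelly regions.

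In BE2C some gained regions had no peak with the vector even in the full lists. Of the 177, 20 had no peak in any full pLKO list, 50 had one in 1 list, 71 in 2 and 36 in all 3. The full pLKO lists of BE2C were 1.30 to 1.68 times as long as the shortened ones and so reached less far past the limit than those of Kelly, and the counts of the lines cannot be compared for this reason. The median rank was 16004 to 18208 in the hairpin libraries, against 27860, 29978 and 30915 in the pLKO libraries, counted over the 61, 90 and 149 regions with a peak there. Of the 157 with a pLKO peak, 58 had every hairpin fold above every pLKO fold. At 2 of them a pLKO library exceeded the median hairpin fold. The same counts over all BE2C regions were not worked out. At the 14874 BE2C regions with a peak in all 9 libraries the median rank was stronger, 7574 to 7890. Over all BE2C regions with a peak in the library it was 12133 to 17022 with shAhR-1 and 19244 to 19339 with shAhR-2. The gained regions had 16904 to 18208 and 16004 to 17611 in these groups, and the rule allows them no hairpin rank past the list length.

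**Figure D2:**
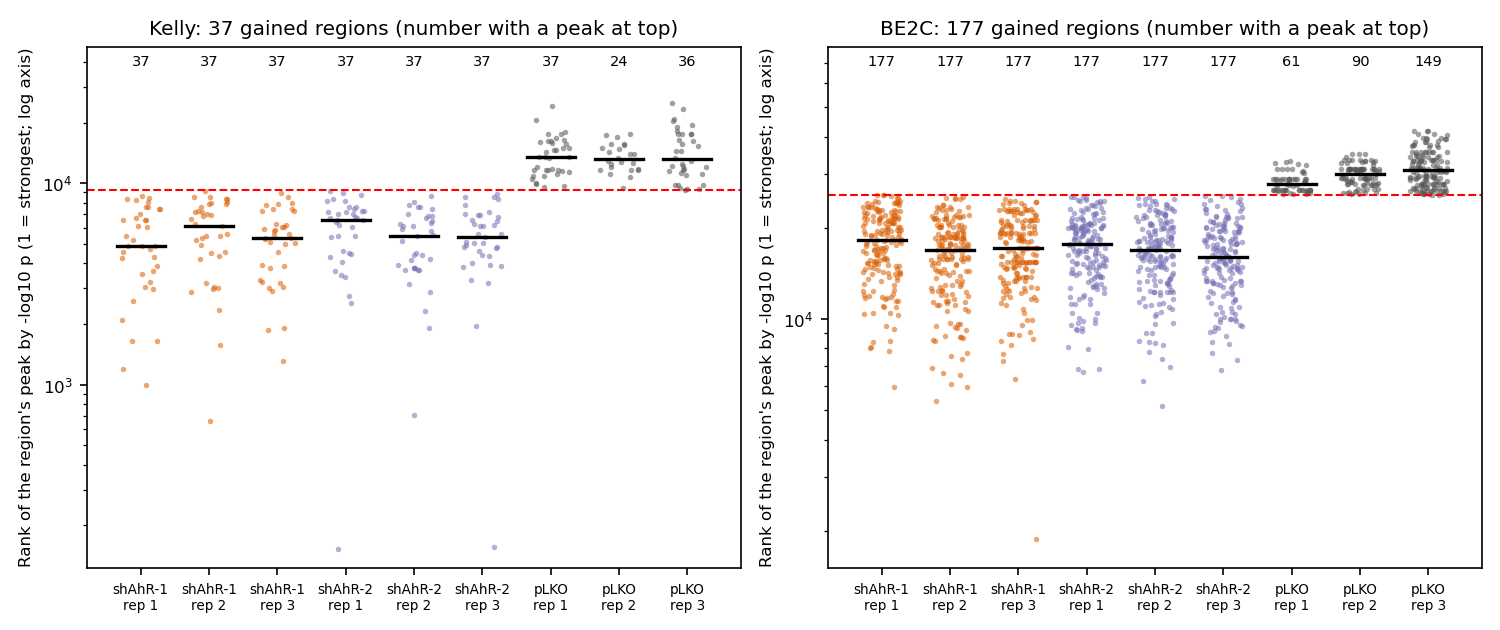
Rank of each gained region's strongest peak within the full list of each library, by −log10 p (1 is the strongest, log axis), for the 37 regions of Kelly (left) and the 177 of BE2C (right); black bars are medians, the red dashed line is the list length of the rule, and the number of regions with a peak stands on top. The rule itself puts hairpin points below the line and pLKO points above it, and the length of the full pLKO lists, 2.11 to 3.68 times the line in Kelly and 1.30 to 1.68 times in BE2C, limits how far a pLKO point can lie above it.

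The first region of BE2C by lowest hairpin fold was chr3:85224615-85226086. Its folds were 10.7, 8.11 and 7.47 with shAhR-1 and 11.2, 11.3 and 8.79 with shAhR-2, against 3.98, 3.21 and 5.95 with pLKO. Every hairpin library stood above every pLKO library. In Kelly the same place had a peak in all 3 shAhR-1 libraries, with folds of 4.997, 10.4 and 10.2, and in no shAhR-2 or pLKO library, although the shAhR-2 lists were the longest of that line. At this region the 2 hairpins were set apart in Kelly, while in BE2C their folds overlapped.

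The region after that of chromosome 7 in this order was chr6:105048137-105049430, with folds of 9.08, 8.56 and 7.41 with shAhR-1 and 7.42, 7.90 and 8.71 with shAhR-2, against 3.58, 3.61 and 4.85 with pLKO. In the full lists of Kelly the hairpin libraries had folds of 6.87, 6.78 and 5.76 with shAhR-1 and 8.06, 7.56 and 7.68 with shAhR-2, and no pLKO library had a peak. It was the only gained region of BE2C (1 of 177) with a full-list peak in all 6 hairpin libraries and in no pLKO library of Kelly, a pattern that 0.0793% of all BE2C regions had. In Kelly shAhR-1 replicates 2 and 3 the summit held 18 and 19 reads, at genome-wide backgrounds of 1.27 and 1.43. The backgrounds were 2.56 to 2.91 in the shAhR-2 libraries and 1.77, 1.92 and 1.26 in the pLKO libraries. The part of depth in the missing pLKO peaks was not tested.

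The fourth, chr1:209488763-209489890, had folds of 8.60, 7.24 and 7.09 with shAhR-1 and 10.3, 10.2 and 9.77 with shAhR-2, against 4.07 and 6.08 in pLKO replicates 1 and 3. None of the 9 Kelly libraries (0) had a peak there in a full list. The fifth, chr10:35791939-35793078, had hairpin folds of 6.80 to 9.35, against 4.38 and 5.15 in the same pLKO replicates, and in Kelly it had weak peaks (4.07 to 5.48) in the shAhR-2 libraries alone. The sixth, chr3:112165004-112165984, had hairpin folds of 6.77 to 10.3, against 5.60 in pLKO replicate 3 alone. At all 3 regions the groups of BE2C did not overlap in fold.

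Of the remaining regions among the first 10, chr6:69183068-69184262 had hairpin folds of 6.23 to 10.6, against 4.01 and 6.30 in pLKO replicates 2 and 3. A region on chromosome 8 had 6.22 to 7.54, against 3.50, 3.23 and 4.44 with pLKO. The tenth, chr15:96730985-96731821, had no pLKO peak in BE2C, while its hairpin folds were 9.17, 7.95 and 5.92 with shAhR-1 and 8.35, 8.30 and 6.79 with shAhR-2. Only the first of these had a pLKO fold above a hairpin fold. In Kelly the region of chromosome 15 had a peak in every full list, pLKO included, with folds of 6.46 to 11.1 in the hairpin libraries, against 7.15, 5.05 and 7.31 with pLKO, and it entered the shortened lists of the shAhR-1 libraries alone.

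The seventh of the order, chr12:43505633-43507153, belonged to a group of 3 gained regions of BE2C on chromosome 12. Its folds were 10.9, 7.23 and 6.64 with shAhR-1 and 8.74, 9.98 and 8.77 with shAhR-2, against 3.98 and 4.42 in pLKO replicates 1 and 3. The others lay at chr12:43361460-43362496, with hairpin folds of 4.92 to 9.003 and no pLKO peak, and at chr12:43372322-43373236, with 4.63 to 8.63, against 4.01 in pLKO replicate 3. At all 3 the hairpin libraries of BE2C were above every pLKO peak. In the full lists of Kelly, the first of the 3 had peaks with shAhR-2 alone (7.93, 8.12 and 10.1), and so had the one at 43361460 (6.13, 8.12 and 9.28). The one at 43372322 had peaks in all 6 hairpin libraries of Kelly (4.997 to 7.47) and in 1 pLKO library (5.41). The shAhR-2 libraries of Kelly had the deepest lists of the line, and the part of depth in this pattern was not tested.

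Among the 20 regions of BE2C without a pLKO peak, the next after chromosome 15 were chr17:53689944-53690791 (hairpin folds 5.83 to 8.57), chr10:59232798-59233833 (5.39 to 9.46), chr5:14342131-14342911 (5.21 to 10.2), chr14:29975687-29976441 (5.10 to 10.6) and chr10:44352712-44353632 (5.09 to 6.72). At chr14:29975687-29976441 the folds were 7.57, 5.10 and 5.81 with shAhR-1 and 10.5, 10.6 and 9.03 with shAhR-2, and no Kelly library had a peak. The solved reads at this summit were 19, 13 and 13 with shAhR-1 and 61, 69 and 73 with shAhR-2. The background was 1.41 to 1.75 reads with shAhR-1 and 3.395 to 4.42 with shAhR-2, against 1.51, 1.495 and 1.86 with pLKO. The part of depth in the missing pLKO peak was not tested. Over all 20, 9 had a full-list pLKO peak in Kelly, 8 had a hairpin peak and no pLKO peak in Kelly, and 3 had no Kelly peak at all. Further regions of this kind were chr3:65123856-65124816, chr9:107644115-107645259, chr12:43361460-43362496 and chr11:120802734-120803812.

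The threshold of the rule cut through a continuum. The weakest hairpin peak of a region ranked as low as 9158 in Kelly and 25640 in BE2C, and the strongest pLKO peak as high as 9243 and 25663, a few places to either side of the limits. At 17 of 37 regions in Kelly and 66 of 177 in BE2C the weakest hairpin peak lay in the last 10% of the list, and at 10 and 80 the strongest pLKO peak lay within 10% beyond it. The strongest pLKO peak was missing or ranked at 1.5 times the list length or beyond at 11 regions in Kelly and 27 in BE2C. Just outside, 87 regions in Kelly and 330 in BE2C had 5 of 6 hairpin libraries and no pLKO library, and 45 and 271 had all 6 and 1 pLKO library.

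Some regions missed the rule by 1 hairpin library. The 5 of Kelly with the highest lowest fold were chr17:51576167-51577177, chr3:118206485-118207332, chr17:20811489-20812310, chr1:189144795-189145585 and a region on chromosome 8, with folds of at least 9.11 in the 5 hairpin libraries with a peak, against 4.19 to 9.58 in the pLKO libraries with one. At chr17:20811489-20812310 and on chromosome 8 the highest pLKO fold, 9.58 and 9.42, was above the lowest hairpin fold, 9.49 and 9.11. The 5 of BE2C were chr4:15016455-15017481, chr6:90240511-90241471, chr6:126438969-126439698, chr9:14096111-14097828 and chr3:84536152-84536943, with folds of at least 6.56, against 3.61 to 5.60 with pLKO, where 1 of the 5 had no pLKO peak. All 5 of Kelly lacked the peak in shAhR-1 replicate 1 and all 5 of BE2C in shAhR-1 replicate 3, the libraries with the shortest lists. That region, chr3:84536152-84536943, had folds of 10.5 and 6.56 with shAhR-1 and 11.7, 12.9 and 10.7 with shAhR-2.

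At the rule's list length, leaving out a library can only relax the rule, so all 37 regions of Kelly and all 177 of BE2C were kept without any 1 library and the counts rose. Without shAhR-1 replicate 1 the count in Kelly was 74, and without pLKO replicate 2 it was 58, against 37 with all libraries. In BE2C it was 328 without shAhR-1 replicate 3 and 288 without pLKO replicate 3, against 177. When the shortest list was left out and the others were shortened to the next shortest (19445 peaks in Kelly, 26308 in BE2C), Kelly had 213 gained regions, which held 2 of the 37, and BE2C had 337, which held 156 of the 177. At 0.5 of the list length, 13 regions met the rule in Kelly and 133 in BE2C, and these held 1 of the 37 and 4 of the 177. Which regions count as gained thus depended on the list length in both lines.

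Kelly and BE2C share no library, and so the libraries of the other line gave a measure that the rule had not used. Of the 177 regions gained in BE2C, 20, 19 and 19 had a peak in the shortened lists of the Kelly shAhR-1 libraries and 6, 11 and 10 in those of shAhR-2, against 5, 5 and 10 in those of pLKO. As shares these were 10.9 ± 0.329% with shAhR-1 and 5.08 ± 1.495% with shAhR-2, against 3.77 ± 1.63% with pLKO (SD, n = 3 each). Every shAhR-1 library stood above every pLKO library, whereas shAhR-2 and pLKO overlapped. Over all BE2C regions the shares were 18.0 to 21.1% with shAhR-1 and 21.4 to 21.7% with shAhR-2, against 21.2 to 21.6% with pLKO, so the gained regions were rarer in Kelly than BE2C regions at large and did not share the flat order of the groups.

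With the longer lists of Kelly, which leave out shAhR-1 replicate 1, the gained regions of BE2C had a peak at 73 and 68 of 177 places with shAhR-1 (41.2 and 38.4%) and at 51, 55 and 52 with shAhR-2 (28.8, 31.1 and 29.4%), against 41, 33 and 41 with pLKO (23.2, 18.6 and 23.2%). All 5 hairpin libraries stood above all 3 pLKO libraries. Over all BE2C regions the shares were 40.7% in both shAhR-1 libraries and 41.3 to 42.4% with shAhR-2, against 38.6 to 42.3% with pLKO. Regions lost with both hairpins in BE2C ran the other way in these lists, with 4.04 to 7.40% in the hairpin libraries, against 11.4 to 15.5% with pLKO. In the shortened lists of Kelly very few of the 446 lost regions had a peak in any library, 0.224 to 1.12% with hairpins, against 1.34 to 2.24% with pLKO. The full lists, whose lengths differ most, gave another order: the lost regions stood at 1.12 to 11.9% with shAhR-1 and 31.2 to 40.1% with shAhR-2, against 11.4 to 34.98% with pLKO, and the gained ones at 34.5 ± 20.4% with shAhR-1 and 71.7 ± 5.03% with shAhR-2, against 35.2 ± 15.2% with pLKO (SD, n = 3 each). By group means, the gained regions thus stood highest with shAhR-1 and lowest with pLKO in the shortened and the longer lists. In lists of the shorter length tried above, the means were 3.77% with shAhR-1 and 0.565% with both shAhR-2 and pLKO. There shAhR-2 was not above pLKO. The longer lists and the shares at the shorter length were chosen after seeing the data, and no test was made over the set.

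**Figure D3:**
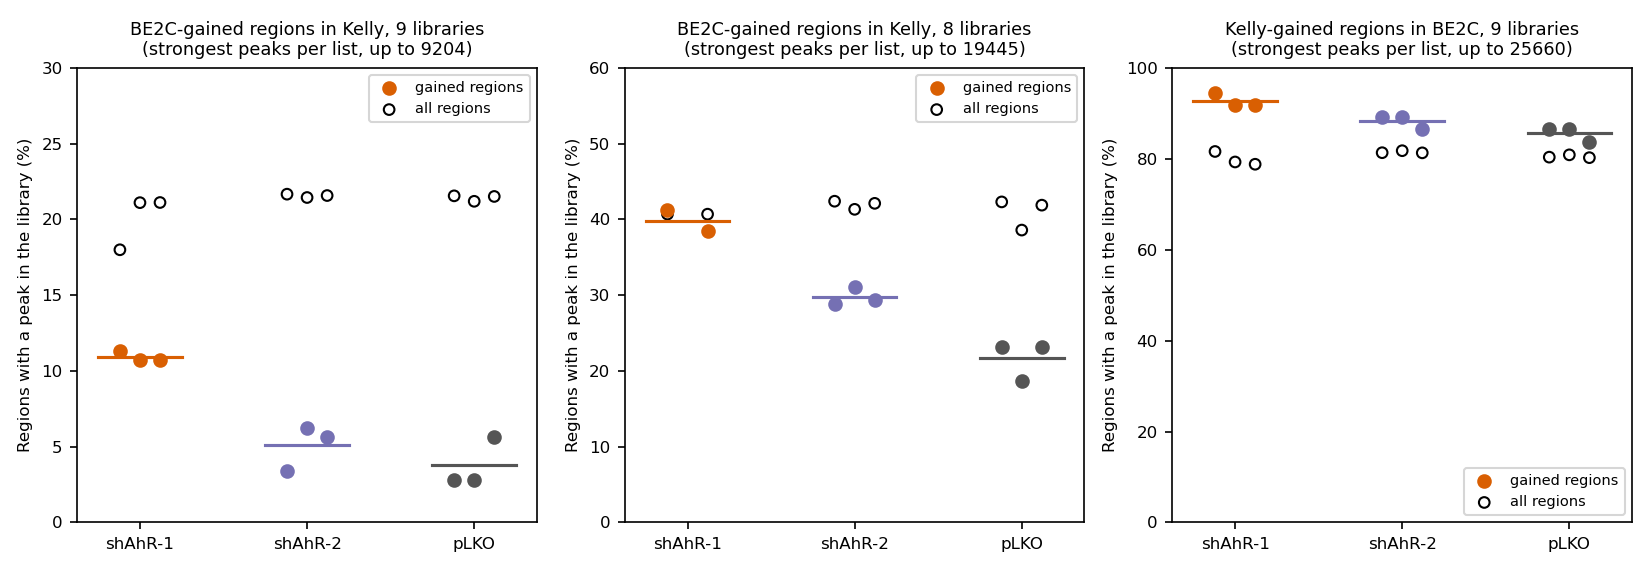
Share of the gained regions (filled points, 1 per library, bars are group means) and of all regions (open points) of a line that had a peak in each library of the other line: BE2C-gained regions in the 9 shortened Kelly lists (left) and in 8 longer Kelly lists (middle), and Kelly-gained regions in the BE2C lists (right), with percent axes of different range. In the middle panel the filled points lie at 28.8% and above with hairpins and at 23.2% and below with pLKO, while the open points lie between 38.6 and 42.4% in all groups.

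Counted by region in the shortened lists, 35 of the 177 had a peak in a larger share of hairpin than of pLKO libraries of Kelly, 6 in a smaller share and 136 in equal shares, mostly with no peak in either. Over all BE2C regions, 11.8% had a larger share and 12.3% a smaller one. With the longer lists the numbers were 77, 18 and 82, against 18.3% larger and 16.2% smaller over all regions. No region (0 of 41611) passed a two-sided Fisher's exact test of hairpin against pLKO libraries after Benjamini-Hochberg adjustment; 6 libraries against 3 give no p below 0.0119. At an unadjusted p under 0.05, 2 gained regions had more hairpin libraries with a peak, against 0.276% of all regions.

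A few gained regions of BE2C met the same criterion in Kelly with 1 hairpin. With shAhR-1, 3 of 177 had a peak in all 3 libraries and in no pLKO library, those of chromosome 7, chr3:85224615-85226086 and chr15:96730985-96731821, against 0.469% of all regions, and 0 showed the reverse, against 0.634%. With shAhR-2, 2 of 177 did, the one of chromosome 7 and chr1:102718188-102719169, against 1.09% of all regions, and 2 showed the reverse, against 1.1%. With the longer lists, 19 were gained in Kelly with shAhR-1 and 0 lost, against 1.98% and 1.26% of all regions. With shAhR-2, 15 were gained and 7 lost in these lists, against 2.39% and 2.14%, and 3 were gained with both hairpins, against 0.452%. In the full lists 3 were gained with shAhR-1, against 0.135% of all regions, and 29 with shAhR-2, against 8.87%, the shAhR-2 lists being by far the longest. The 2 hairpins share the pLKO libraries of Kelly, and the difference between them was not tested.

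At chr1:102718188-102719169 the hairpins differed in fold in both lines. This region was named because the shortened Kelly lists held its peak in all shAhR-2 libraries and no pLKO library. Its Kelly values are thus a description. In BE2C the folds were 6.81, 4.41 and 3.73 with shAhR-1 and 9.22, 9.31 and 9.30 with shAhR-2, against 3.98, 4.81 and 4.90 with pLKO. In Kelly they were 3.75, 5.65 and 9.30 with shAhR-1 and 10.4, 9.56 and 10.5 with shAhR-2, against 8.90, 5.14 and 7.99 with pLKO. The shAhR-2 libraries were above all others in both lines, and the shAhR-1 libraries overlapped the pLKO libraries in both.

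The region of chromosome 2 that was shared between the lines under the longer lists, chr2:189585980-189587517 in BE2C, had folds there of 6.43, 5.10 and 7.47 with shAhR-1 and 8.28, 9.39 and 9.27 with shAhR-2, against 4.38, 3.21 and 5.25 with pLKO. In the full lists of Kelly it had folds of 7.06 and 8.31 in shAhR-1 replicates 2 and 3 and 8.04, 8.57 and 12 with shAhR-2. Neither shAhR-1 replicate 1 nor any pLKO library of Kelly had a peak. The groups did not overlap in BE2C except for 1 shAhR-1 library that lay below the highest pLKO fold.

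The regions gained in Kelly were common in BE2C in every group. Of 37, 35, 34 and 34 had a peak in the shortened lists of the BE2C shAhR-1 libraries and 33, 33 and 32 in those of shAhR-2, against 32, 32 and 31 in those of pLKO. The shares were 92.8 ± 1.56% with shAhR-1 and 88.3 ± 1.56% with shAhR-2, against 85.6 ± 1.57% with pLKO (SD, n = 3 each), and 78.8 to 81.8% over all Kelly regions. Every shAhR-1 library was above every pLKO library, and the lowest shAhR-2 library equalled the highest pLKO library (32 regions each). The order rested on 4 regions with a larger share of hairpin libraries and 1 with a smaller one, 32 being equal, and the shares over all regions were 8.97% larger and 10.4% smaller.

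Several of the first 10 regions of Kelly had strong peaks in the pLKO libraries of BE2C, and 4 were singled out after their values there were seen. These were chr15:33452422-33453745, chr5:123462944-123464282, chr3:158245865-158246691 and chr6:104430429-104431394. The BE2C hairpin folds were 5.73 to 10.7 at the first, 4.88 to 10.6 at the second, 9.14 to 12.01 at the third and 7.002 to 11.7 at the fourth. The pLKO folds there were 9.64 to 11.2 at the first, 11.2 to 14.5 at the second, 13.3 to 14.7 at the third and 12.2 to 12.8 at the fourth. At all but the first, every pLKO fold of BE2C was above every hairpin fold. The share of all regions with this order was not worked out. At the 14874 BE2C regions with a peak in all 9 libraries the median fold was 6.52 to 9.62 with hairpins, against 8.58, 9.55 and 10.1 with pLKO. By rank the hairpin and pLKO libraries of BE2C overlapped at all 4, and by fold those of Kelly did. Another of the first 10, chr4:18320196-18321273, had still stronger pLKO ranks in BE2C, 1655, 1720 and 1596. Its pLKO folds there were 13.16, 14.16 and 13.35, and the hairpin folds of 8.48 to 13.41 overlapped them.

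The regions were not stronger with the same hairpin throughout. In Kelly every shAhR-1 rank was stronger than every shAhR-2 rank at 6 of the 37 regions (16.2%) and the reverse held at 5 (13.5%), against 13.2% and 19.5% of the regions with a peak in all 9 libraries. In BE2C the numbers were 19 (10.7%) and 31 (17.5%) of 177, against 19.9% and 20.1%. Most gained regions had overlapping ranks with the 2 hairpins in both lines.

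Gained regions were wider than the lost ones of the same line. The median width of the merged region was 1078 bp for the 37 gained, against 785.5 bp for 94 lost (0.566% of regions) and 963 bp for all regions of Kelly. In BE2C it was 1111 bp for the 177 gained, against 619.5 bp for 446 lost (1.07%) and 917 bp for all. The rule takes part in this, since a gained region merges the peaks of at least 6 libraries and a lost one those of 3. Regions with a peak in all 9 libraries had medians of 1248 bp in Kelly and 1253 bp in BE2C. Single peaks of the hairpin libraries at the gained regions had medians of 754.5 bp in Kelly and 718 bp in BE2C. For each region's strongest peak, medians by hairpin library were 335 to 1019 bp at gained and 323 to 978 bp at all Kelly regions. In BE2C they were 316 to 988 bp and 455 to 895 bp, so single peaks at gained regions had widths much like those at all regions.

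The positions of the hairpin libraries' summits were compared within each gained region, and this was not done for other regions. Their range within a region had a median of 136 bp in Kelly and 159 bp in BE2C, and at 10 of 37 and 43 of 177 regions all 6 lay within 100 bp. The closest were those of chr6:104430429-104431394, within 7 bp. The widest ranges, up to 1001 bp in Kelly and 1117 bp in BE2C, mark merged regions in which the libraries' strongest peaks stand apart.

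In BE2C the gained regions lay farther from the sites open in every library than other regions did. The median distance to the nearest region with a peak in all 9 libraries was 71.5 kb for gained regions, against 31.5 kb for lost ones and 43.2 kb for all. Within 100 kb of such a site lay 62.1% of the gained, against 81.6% of the lost and 75.1% of all regions. In Kelly, where fewer regions were open in every library, the medians were 229.9 kb for gained, 191 kb for lost and 187 kb for all, and the shares within 100 kb were 37.8%, 30.9% and 34.0%. The larger distance of gained regions was thus seen in BE2C, while in Kelly the median and the share within 100 kb pointed opposite ways.

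**Figure D4:**
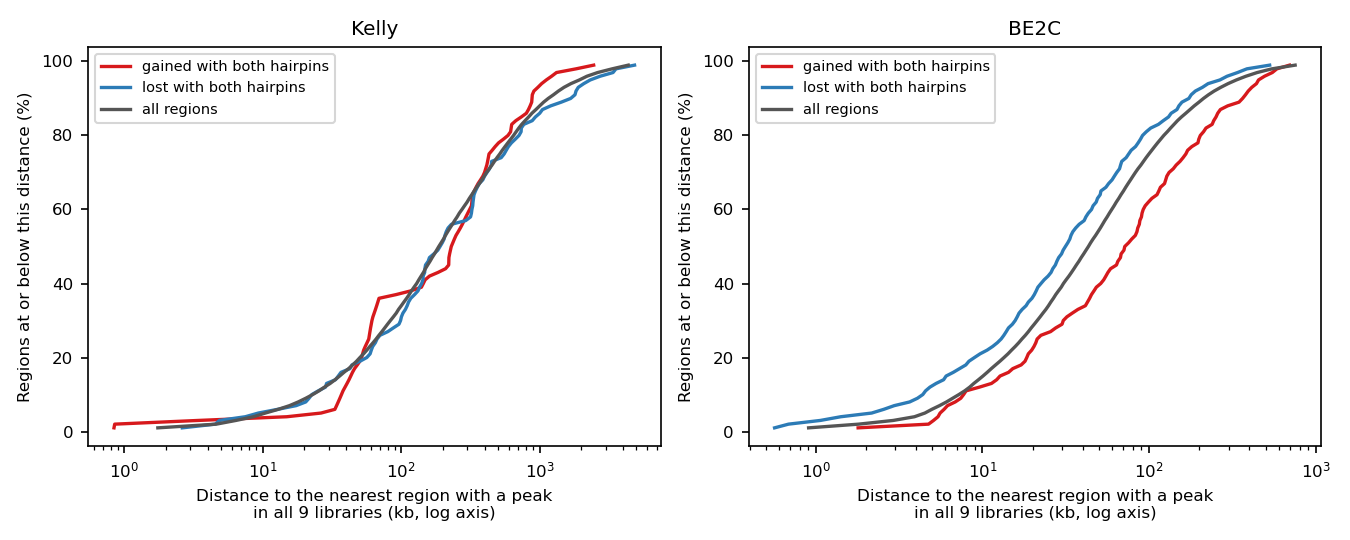
Cumulative share of regions (percent) by distance to the nearest region with a peak in all 9 libraries of the line (kb, log axis), for regions gained with both hairpins (red), lost with both (blue) and all regions (grey), in Kelly (left) and BE2C (right). In BE2C the red curve lies to the right of the others up to the 98th percentile, with medians of 71.5, 31.5 and 43.2 kb, and in Kelly the curves cross.

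The gained regions were spread over the autosomes. Chromosome 7 held 6 of 37 in Kelly (16.2%, against 6.99% of all regions) and 18 of 177 in BE2C (10.2%, against 7.02%). In percentage points this excess was the largest of all chromosomes in both lines, while as a ratio chromosome 18 stood higher in BE2C, with 4 of 177 (2.26%, against 1.485% of all regions). Chromosome 22 held none (0) in either line, against 1.82% of all regions in Kelly and 1.40% in BE2C. Kelly also had none on chromosomes 8, 9, 10, 13, 18, 20 and 21. Copy number of the chromosomes was not analysed here.

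In their own line, 4 of 37 gained regions of Kelly and 33 of 177 of BE2C lay within 1 Mb of another. The same share over all regions of a line was not worked out. The closest pair was chr7:132805730-132806702 and chr7:132810834-132811467 in BE2C, 4.13 kb apart, followed by chr1:223514029-223515345 and chr1:223521946-223523485, 6.60 kb apart. At the first pair the hairpin folds were 3.72 to 6.57 and 5.19 to 9.07, against 3.45 and 4.54, and 4.13 and 5.54, in pLKO replicates 2 and 3. In Kelly the region of chromosome 7 that was gained in both lines had a gained neighbour 71.7 kb away, chr7:85212196-85213155. That neighbour had folds of 3.75, 10.8 and 10.1 with shAhR-1 and 11.8, 10.9 and 14.1 with shAhR-2, against 8.93 and 7.79 in pLKO replicates 1 and 3. In BE2C it was open in all 9 shortened lists. Between lines, 11 of 37 regions of Kelly (29.7%) lay within 1 Mb of a region gained in BE2C, against 11.2% of all Kelly regions. Of the 177 of BE2C, 10 (5.65%) lay within 1 Mb of one of Kelly, against 2.96% of all BE2C regions. Both counts include the region gained in both lines, and the 11 also include its Kelly neighbour.

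A few regions met the rule on a high local background. At chr2:16124325-16125559 in Kelly the local background was 199 times the genome-wide one (median of the hairpin libraries), and at chr17:21902845-21904744 it was 22.9 times. At the first, the folds were 1.502, 1.55 and 1.496 with shAhR-1 and 2.51, 2.18 and 2.62 with shAhR-2, against 1.53, 1.27 and 1.45 with pLKO. Here the shAhR-2 libraries stood above the others in fold and the shAhR-1 libraries overlapped the pLKO libraries. At the second, the hairpin folds were 3.42 to 4.16, against 3.48, 2.61 and 3.40 with pLKO. Whether these regions lie in amplified DNA was not analysed here.

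In BE2C no gained region (0 of 177) reached 10 times the genome-wide background. The highest ratios were 8.46 at chr5:49410134-49411771, 7.32 at chr11:51572072-51573187 and 5.75 at chr2:90448387-90451612, the widest region, with 3226 bp. At chr11:51572072-51573187 the folds were 4.37, 3.13 and 4.92 with shAhR-1 and 4.02, 4.27 and 4.70 with shAhR-2, and no pLKO library of BE2C had a peak. All 9 Kelly libraries had one, with folds of 4.78 to 7.20 in the hairpin libraries, against 5.04, 6.10 and 5.12 with pLKO. The missing pLKO peak was thus seen in BE2C alone of the 2 lines.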

How the data were processed

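Libraries of 50K cells were transposed for 30 min and amplified in 10 PCR cycles, per the labels' protocols. The submitters' processing notes name CASAVA 1.8.2, Trimmomatic 0.33, BWA 0.7.17, MACS2 2.1.0, deepTools 3.1.3 and build hg19. Settings, duplicate removal and any shift of read ends, which could change which peaks were called, were not given in the sources used here. The authors deposited 1 peak list per library, each peak with an integer score, a fold over local background (a linear ratio) and −log10 p-value and q-value. These are the authors' values for single peaks, used only to rank and describe them. A missing peak means that none was called, not that the site was closed.

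Lists were shortened and merged as the report describes; only chromosomes 1 to 22 were kept, and groups came from the cell line and genotype labels. A region counted as present in a library when a peak on its list overlapped it by at least 1 bp. The strongest overlapping peak gave the fold and rank. Reads and local background at a summit were solved from fold and −log10 p, taking p as a Poisson tail and the fold as reads over background, each with 1 added, where reads came out whole within 0.05. At folds of at least 1.5 they were solved for 78.4% of the peaks of Kelly shAhR-1 replicate 1 and at least 98.8% of those of any other library; below that fold or at high counts a whole number says little, and no such reads are printed. The lowest local background among each library's peaks of at least that fold was taken as its genome-wide background, since read totals were not used here. Intervals cover counting error only. Presence in the other line's libraries was compared with a two-sided Fisher's exact test over all regions with Benjamini-Hochberg adjustment. Scripts were tested on simulated lists. The tools were Python 3.11.15, numpy 2.4.6, pandas 2.3.3, scipy 1.17.1 and matplotlib 3.10.9.

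The regions and the comparisons were chosen with earlier results of these data known. Named per line were the 10 gained regions with the highest lowest fold in the hairpin libraries, up to 10 without any pLKO peak in the same order, those gained in the other line with at least 1 hairpin, and 5 that missed the rule by 1 hairpin library. Regions named outside this rule, namely neighbours, those of high local background, those shared under longer lists and those compared for their BE2C values, were chosen after their values were seen. Alternatives were chromosome X, ranking by fold, other list lengths, a q threshold, a 50% coverage rule and leaving out each library.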

Additional observations from a re-analysis of the deposited data

Results flagged for a closer look

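At chr1:218758831-218759786, gained in BE2C, the direction in Kelly was opposite with shAhR-2. In BE2C the folds were 6.69, 4.83 and 3.37 with shAhR-1 and 7.92, 6.46 and 6.18 with shAhR-2, against 3.85 in 1 pLKO library. In Kelly they were 5.45, 10.2 and 8.36 with shAhR-1 and 6.35, 7.32 and 7.45 with shAhR-2, against 12.81, 7.21 and 11.3 with pLKO, and the shortened lists held the peak in all pLKO and no shAhR-2 library. At chr5:136516941-136517877 the folds in BE2C were 8.46, 4.87 and 3.43 with shAhR-1 and 7.45, 7.74 and 6.72 with shAhR-2, against 5.37 in 1 pLKO library. In Kelly they were 7.03 and 6.67 in 2 shAhR-1 libraries and 6.72, 6.75 and 6.78 with shAhR-2, against 10.59, 7.79 and 10.1 with pLKO. These were the 2 of 177 gained regions of BE2C lost in Kelly with shAhR-2 in the shortened lists (1.13%), against 1.1% of all BE2C regions. The difference between the lines was not tested at either region.

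The rule left out chromosome X; with it, 2 regions of that chromosome in Kelly and 9 in BE2C were gained with both hairpins. The strongest were chrX:123813104-123814499 in Kelly, with hairpin folds of 6.72 to 10.1 and a weaker peak in 2 full pLKO lists, and chrX:135686592-135687680 in BE2C, with 7.72 to 9.37 and no pLKO peak.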

How the results depend on the processing

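The number of gained regions in Kelly, 37, was 13 at 0.5 of the list length, 13 when full lists were filtered at a −log10 q of 5, 3 when a peak had to cover 50% of the region, and 213 without the shortest list at the next length. In BE2C, with 177, it was 64 at that q threshold, 72 with 50% coverage and 337 without the shortest list. Leaving out 1 library gave 39 to 74 in Kelly and 191 to 328 in BE2C. Of the 37 regions of Kelly 35, 12, 1 and 0 were kept with chromosome X, ranking by fold, the shorter length and full lists, and of the 177 of BE2C 158, 83, 4 and 20. The excess of hairpin over pLKO libraries in the share of Kelly-gained regions with a peak in BE2C, 4.95 percentage points, was 1.35 with full lists, 15.8 with 50% coverage, 2.14 with chromosome X and 9.01 at 0.5 of the length. That of BE2C-gained regions in Kelly, 4.24, was 17.9 with full lists, whose lengths differ most, 1.41 with 50% coverage, 12.1 with the longer lists and 1.601 at 0.5 of the length. Leaving out 1 library gave 4.05 to 5.77 and 3.58 to 5.18. The regions gained with at least 1 hairpin in the other line were 31 with full lists, against 5. No excess pooled over the hairpins changed its sign under these alternatives. By hairpin, that of BE2C-gained regions in Kelly, 7.16 with shAhR-1 and 1.32 with shAhR-2, was -0.753 and 36.5 with full lists, and 3.202 and 0 at 0.5 of the length. That of Kelly-gained regions in BE2C, 7.21 and 2.703, was 0 and 2.703 with full lists. The longer lists, 0.5 of the length for the shares, the shortest autosomal length, the values by hairpin and the replicate block were chosen after seeing the data. The cause of each move was not tested. With the replicate number as a block, the mean excess is the same by construction (4.95 and 4.24), and within the 3 numbers it was 4.05 to 5.405 and 2.54 to 5.65. The numbers did not pair the libraries: between same-numbered libraries of different groups (9 pairs per line), deviations of log2 rank from the group mean had correlations from -0.165 up to 0.111 for Kelly and from -0.243 up to 0.0966 for BE2C. No blocked form of Fisher's test was run. Gene distance and GC content were not run, since no hg19 genome was used here. The length of the shortest list set how many peaks of the other libraries were used, and a peak called in no pLKO library may lie under the caller's threshold.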
